A study of Homo sapiens with 3 samples.

Results

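Androgen-induced genes other than the kallikreins were examined in LNCaP, a human prostate cancer cell line that was established from a lymph node metastasis and responds to androgen. The 10 genes are TMPRSS2, SLC45A3, ABCC4, FKBP5, PMEPA1, ELL2, ZBTB10, NDRG1, HOMER2 and TPD52, taken by their symbols in the array's annotation. They were represented by 12 probes of 34183 and are 10 of the 20399 named genes. All 10 passed the filter on dim genes, which kept 10200 genes, termed measured genes below. Cells grown in serum-containing medium received a small interfering RNA (siRNA) against 1 of 3 SHOT-RNAs, which are tRNA fragments that accumulate in hormone-dependent cancers. The targets were the 5' fragment of tRNA-LysCUU (5'-Lys KD, 20 nM), the 5' fragment of tRNA-AspGUC (5'-Asp KD, 20 nM) and the 3' fragment of the same tRNA-Asp (3'-Asp KD, 10 nM). The control in each case was LNCaP cells with an siRNA to Renilla luciferase (R-Luc KD), and cells were harvested after 72 h. Each knockdown was set against its control on 1 2-colour array, so there was 1 array per group, no replicate and no test. "Higher" and "lower" describe these arrays.

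The androgen receptor is a nuclear receptor that enters the nucleus when it binds testosterone or dihydrotestosterone and then occupies androgen response elements, mostly in enhancers far from the gene start, together with the pioneer factors FOXA1 and HOXB13. In prostate luminal cells it drives secretory and membrane proteins, and also genes that feed back on the receptor itself. Several of its target genes also answer to other signals, NDRG1 to hypoxia and PMEPA1 to TGF-beta.

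Which column holds the knockdown is clear on the 5'-Lys array, where all labels match, but not on the Asp arrays. On all 3 arrays the sample labels give Cy3 to the knockdown and Cy5 to the control. The deposited column names put the knockdown first on the 5'-Lys array and the control first on both Asp arrays. Spike-in ratios of the first over the second column were nearly the same throughout. Over 10 probes, r was at least 0.999 for each pair of arrays. The same dye order of the columns gives this, but it does not show which RNA carried which dye. Every ratio below is the first over the second column, which by the dye labels is knockdown over control. By the column names each sign on the Asp arrays would turn, and a lower value there would be a higher one. In bulk RNA, fewer cells of a type and less RNA per cell cannot be told apart.

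The cells carried the luminal markers of their label. All 8 luminal markers analysed, among them KRT18, HOXB13, FOLH1 and EPCAM, passed the filter, with signals from 420 to 35471. Of the basal markers 1 of 5 passed (KRT15), of the neuroendocrine 1 of 5 (ENO2) and of the fibroblast 1 of 6 (COL1A1), while 0 of 4 endothelial and 0 of 4 leukocyte markers did. The basal keratin KRT5 reached at most 4.25, the endothelial PECAM1 4.70 and the fibroblast collagen COL3A1 4.20, near the floor of the arrays. Some other markers that failed the filter were not at the floor. The endothelial CDH5 and VWF reached 131 and 60.5, and the leukocyte CD14 and CD68 reached 88.7 and 86.8. The summed luminal signal was 99395 against 124983 in the first and second columns of the 5'-Lys array, 120811 against 125966 on the 5'-Asp array and 102346 against 108825 on the 3'-Asp array. The sum was lower in the first column of every array, but the markers did not all go that way. HOXB13, STEAP1, KLK3 and KLK2 were lower in the first column on all arrays, while KRT8 (1381 against 870 on the 5'-Lys array) and KRT18 were higher on all, and 2 of 8 markers were higher on the 5'-Lys array and 4 of 8 on each Asp array. Their part in the results below was not tested. Levels of the targeted fragments were not analysed here, and how far each was depleted is not known from these data.

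Promoter sequences from RefSeq (GRCh38.p14), each spanning 250 bases before to 50 bases after a gene start, were used for 5 of the 10 genes (SLC45A3, FKBP5, ABCC4, HOMER2 and PMEPA1), which have 9 starts between them. The full androgen response element, AGAACA and TGTTCT with 3 bases between, was in 0 of the 9, and in 1 of all 35116 promoters of the table. Its half-site TGTTCT, searched on both strands, was in 3 of the 9, at 1 FKBP5 start and 2 PMEPA1 starts, and in 14.8% of all promoters. The forkhead core TGTTTAC was in 0 of the 9 and in 3.42% of all promoters, and the GC box GGGCGG in 5 of the 9 and in 45.0%. A match describes letters in these windows and is no evidence that a factor binds there. The 3 promoters with the half-site are shown, chosen by that match alone and not by the ratios of their genes. They run 5' to 3' on the gene's strand, and capitals mark the half-site, which reads AGAACA where it lies on the opposite strand.
FKBP5, chr6:35728534-35728833, minus strand, half-site beginning at base 1 after the start: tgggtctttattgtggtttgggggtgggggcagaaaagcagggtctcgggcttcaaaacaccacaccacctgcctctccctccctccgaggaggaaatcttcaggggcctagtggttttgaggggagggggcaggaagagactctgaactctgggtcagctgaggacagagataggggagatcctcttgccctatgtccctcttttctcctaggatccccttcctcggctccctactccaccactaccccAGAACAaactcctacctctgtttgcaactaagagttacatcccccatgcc
PMEPA1, chr20:57711423-57711722, minus strand, half-site beginning at base 23 after the start: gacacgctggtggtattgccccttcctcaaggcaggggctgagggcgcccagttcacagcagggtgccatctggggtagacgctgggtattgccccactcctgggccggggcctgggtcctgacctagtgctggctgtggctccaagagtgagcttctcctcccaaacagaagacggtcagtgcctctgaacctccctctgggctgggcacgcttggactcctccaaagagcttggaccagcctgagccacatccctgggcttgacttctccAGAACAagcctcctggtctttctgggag
PMEPA1, chr20:57710528-57710827, minus strand, half-site beginning 229 bases before the start: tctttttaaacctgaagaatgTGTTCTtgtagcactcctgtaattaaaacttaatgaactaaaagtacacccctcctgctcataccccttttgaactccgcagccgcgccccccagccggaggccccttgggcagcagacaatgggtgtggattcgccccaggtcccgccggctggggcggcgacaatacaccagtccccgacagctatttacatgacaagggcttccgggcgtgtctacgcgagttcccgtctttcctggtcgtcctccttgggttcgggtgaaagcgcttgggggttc

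After 5'-Lys KD 9 of the 10 genes lay below 0, which is the median of measured genes, and the median log2 ratio of the 10 was -0.50. FKBP5 and ELL2 were at least 1.5-fold lower, 2 of 10 against 6.95% of measured genes, and FKBP5 was the 1 gene at least 2-fold lower, against 1.35%. No gene of the 10 was at least 1.5-fold higher, against 4.49% of measured genes. On the 5'-Asp array 7 of 10 ratios were below 0 with a median of -0.30. There 4 of 10 were at least 1.5-fold lower in the first column (ZBTB10, NDRG1, ELL2 and FKBP5) against 4.35% of measured genes, and 0 were higher by that margin against 3.54%. On the 3'-Asp array, at the lower dose, 8 of 10 ratios were below 0 with a median of -0.26. No gene there was 1.5-fold away from 0, against 2.56% of measured genes lower and 2.3% higher. With the sign turned, the 4 genes of the 5'-Asp array would be higher and the medians of the Asp arrays 0.30 and 0.26.

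FKBP5, SLC45A3, ELL2, ZBTB10, ABCC4 and TPD52 were below 0 on all 3 arrays, 6 of 10 against 27.7% of measured genes. By the column names the same genes would be below 0 on the 5'-Lys array and above 0 on both Asp arrays. ABCC4 counts among them with only -0.01 on the 5'-Asp array, where it was 0.01 without centring, and TPD52 rests on its dim probe on the 5'-Lys and 5'-Asp arrays. The arrays may share control RNA, and the members were chosen with earlier results known, so this count is a description. Above 0 on all 3 arrays were 27.5% of measured genes. The spike-in ratios were what the same dye in a column on every array would give. If so, a difference between the dyes at a probe would take the same side on every array, whichever RNA carried which dye. How much of the shared side the dyes give was not tested, here or for the single genes and probes below.

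**Figure D1:**
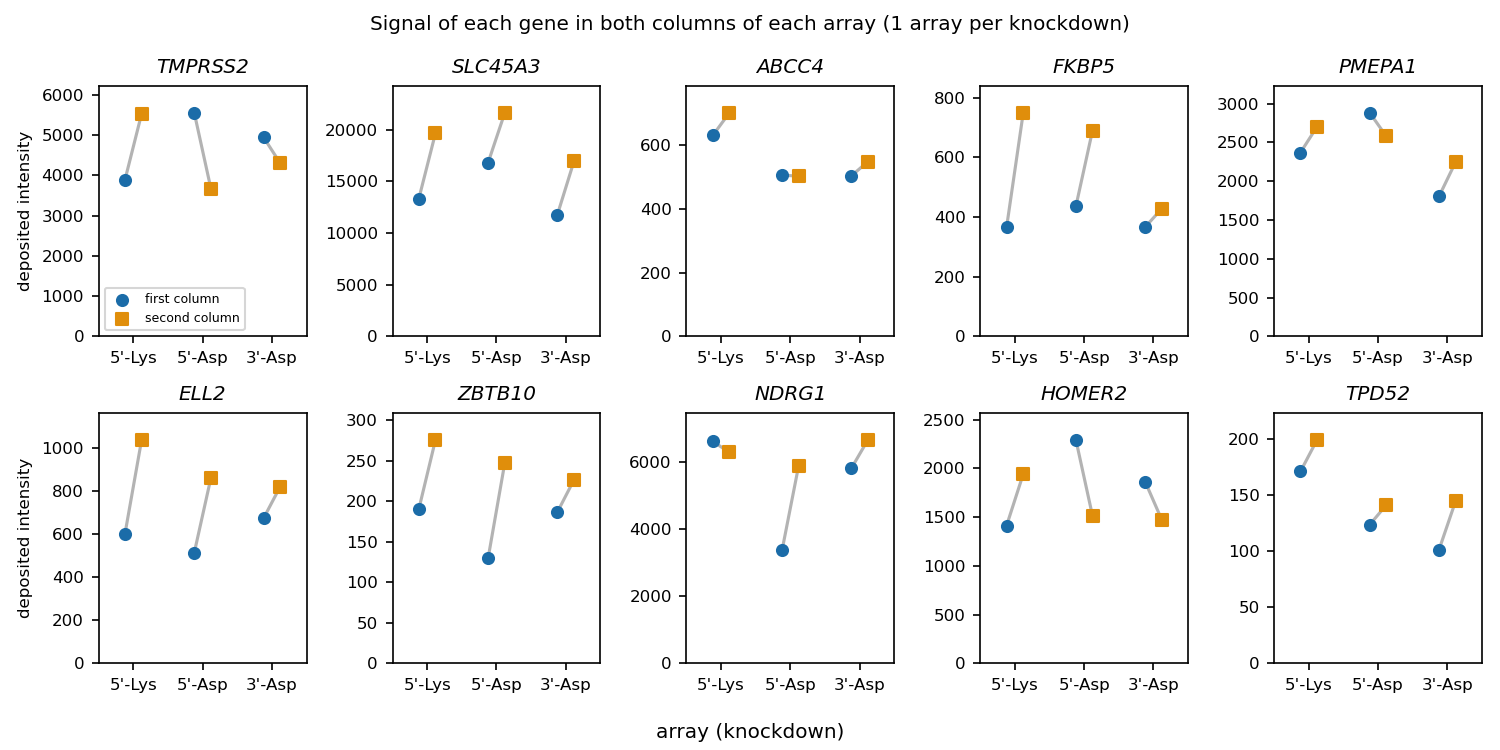
Deposited intensity (linear axis from 0, own scale per panel) of each of the 10 genes in the first column (circles) and second column (squares) of each array (5'-Lys, 5'-Asp, 3'-Asp), joined within an array; PMEPA1 and TPD52 are geometric means of 2 probes. The first column of ELL2, ZBTB10, FKBP5 and SLC45A3 lies below the second on every array, whereas TMPRSS2 and HOMER2 cross over between the 5'-Lys and the Asp arrays.

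Among the membrane proteins, TMPRSS2 encodes a serine protease of the luminal cell surface, whose promoter is joined to ETS factor genes in many prostate cancers. Its signal was 3887 after 5'-Lys KD and 5524 in the control. It was 5548 in the first and 3667 in the second column of the 5'-Asp array, and 4941 and 4299 on the 3'-Asp array. The first column was therefore the lower one on the 5'-Lys array and the higher one on both Asp arrays. The centred log2 ratios were -0.52, 0.58 and 0.20 in the order 5'-Lys, 5'-Asp and 3'-Asp, and none reached 1.5-fold. The SD of its log2 signal, set relative to each column's median, was 0.17 over the 3 second columns and 0.38 over the 3 first columns. Such an SD, here and below, is a spread between arrays and not the error of a ratio. By the column names the second columns mix control and knockdown.

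SLC45A3 encodes prostein, a prostate membrane protein related to sugar transporters and likewise a fusion partner of ETS genes. Signals in the first and second columns were 13345 and 19680 on the 5'-Lys array, 16828 and 21640 on the 5'-Asp array, and 11797 and 16980 on the 3'-Asp array. The first column was the lower one on each array. Relative to the column's median, the highest first-column value (4.18 on the log2 scale, 5'-Asp array) and the lowest second-column value (4.16, 3'-Asp array) just overlapped. The log2 ratios were -0.58, -0.38 and -0.53, the narrowest span among the genes with a ratio beyond -0.5, and the second columns had an SD of 0.23. On the 5'-Lys array this was a 1.49-fold lower signal, just short of the threshold.

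ABCC4 encodes an efflux pump for cyclic nucleotides, prostaglandins and drugs. Its first and second signals were 630 and 701 on the 5'-Lys array, 506 and 503 on the 5'-Asp array and 503 and 549 on the 3'-Asp array. The log2 ratios were -0.17 on the 5'-Lys array, -0.01 on the 5'-Asp array and -0.13 on the 3'-Asp array. The second columns had an SD of 0.12. Its mean size of log2 ratio, 0.10, was the smallest of the 10 genes.

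FKBP5 and PMEPA1 both act on the receptor. FKBP5 encodes an HSP90 co-chaperone of steroid receptor complexes. Its signal was 366 after 5'-Lys KD and 749 in the control. It was 436 and 690 in the first and second columns of the 5'-Asp array and 366 and 428 on the 3'-Asp array. The first column was the lower one each time, and the columns overlapped, since the second-column signal of the 3'-Asp array stood below the other two and below the highest first-column signal. The log2 ratios were -1.05, -0.68 and -0.23, or 2.07-, 1.60- and 1.17-fold lower in the first column. FKBP5 also had the largest SD between second columns of the 10 genes, 0.40, while that over its first columns was 0.24. With the mean second-column signal of all arrays as the control, FKBP5 was at least 1.5-fold lower on the 5'-Lys and 3'-Asp arrays but not on the 5'-Asp array.

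PMEPA1 encodes a membrane adaptor of NEDD4-type ubiquitin ligases that lowers receptor protein and dampens TGF-beta signalling. Its 2 probes, both annotated to the same RefSeq transcript, disagreed. Probe A_24_P413126 had first and second signals of 3454 and 5333 on the 5'-Lys array, 4658 and 4995 on the 5'-Asp array and 2618 and 4446 on the 3'-Asp array. Probe A_33_P3403867 had 1624 and 1370, 1781 and 1329, and 1244 and 1137 on the same arrays. The former was lower in the first column throughout, with log2 ratios of -0.64, -0.12 and -0.77, and the latter higher throughout, with 0.23, 0.40 and 0.13. The gap between the probes was 0.87, 0.52 and 0.89 on the log2 scale. Gaps at least as large were found in 6.16%, 18.5% and 3.89% of the 3086 measured genes with several probes. The averages printed for the gene, -0.21, 0.14 and -0.32, therefore hide opposite readings, and with the brighter probe alone PMEPA1 was more than 1.5-fold lower in the first column of the 5'-Lys and 3'-Asp arrays. The RefSeq table lists 4 starts for PMEPA1, and whether the probes detect different transcripts was not tested.

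**Figure D2:**
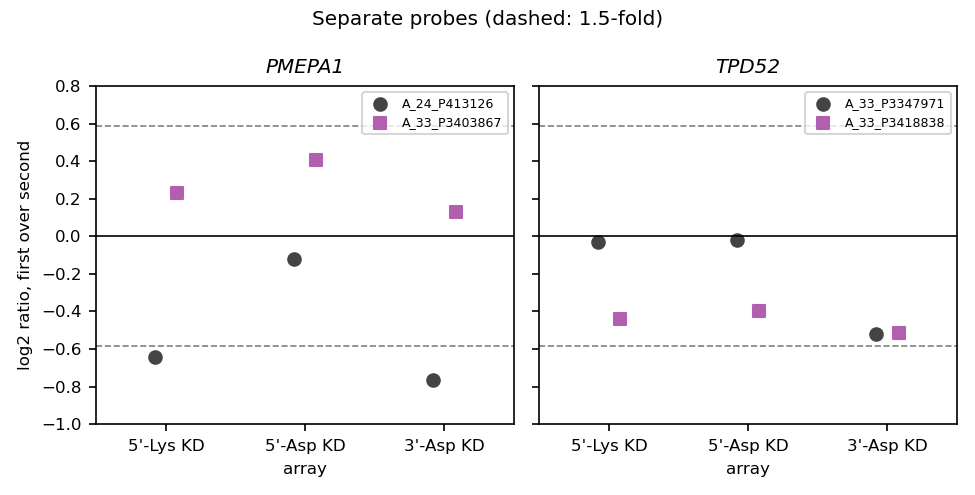
Centred log2 ratio of the first over the second column for the 2 probes each of PMEPA1 and TPD52 on the 3 arrays, with dashed lines at 1.5-fold. The PMEPA1 probes lie on opposite sides of 0 on every array, while those of TPD52 lie below 0 on every array and coincide on the 3'-Asp array at -0.52.

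ELL2 and ZBTB10 act in the nucleus. ELL2 encodes an elongation factor of RNA polymerase II that works in the super elongation complex. Signals were 603 after 5'-Lys KD and 1039 in the control, 515 and 862 in the first and second columns of the 5'-Asp array, and 675 and 822 on the 3'-Asp array. All first-column signals were below all second-column signals, and the part of the dyes in this order was not tested. The log2 ratios were -0.80, -0.76 and -0.29, or 1.74-, 1.70- and 1.22-fold lower. The second columns had an SD of 0.09, the smallest of the 10 genes. Of 12 other genes listed beside the complex 9 were measured, and not all listed are subunits of it (HEXIM1, ICE1 and ICE2 are not). On the 5'-Lys array 0 of 9 were at least 1.5-fold away from 0, against 6.95% of measured genes lower and 4.49% higher. On the 3'-Asp array it was also 0 of 9, against 2.56% and 2.3%. On the 5'-Asp array 3 were lower in the first column, against 4.35% of measured genes (higher, if the sign is turned), namely EAF2 (-0.89), which binds ELL proteins, the cyclin CCNT1 (-0.82) and EAF1 (-0.60). Medians of the 9 were -0.13, -0.12 and -0.09. Of the paralogs, ELL had 0.34, 0.41 and 0.42, all above 0, and ELL3 had -0.23, -0.04 and -0.79.

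ZBTB10 encodes a zinc finger repressor that binds GC-rich promoters. Its signals were 191 after 5'-Lys KD and 276 in the control, 130 and 247 in the columns of the 5'-Asp array and 187 and 227 on the 3'-Asp array. First-column signals again lay below all second-column signals, and here too the part of the dyes was not tested. The log2 ratios were -0.55, -0.95 and -0.28, the second of them the lowest of the 10 genes on the 5'-Asp array, where 0.667% of measured genes were lower. The SD between second columns was 0.10.

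NDRG1, HOMER2 and TPD52 act in the cytoplasm. NDRG1 encodes a differentiation- and stress-induced protein that is also raised by hypoxia. Its signals were 6621 after 5'-Lys KD and 6291 in the control, 3367 and 5892 on the 5'-Asp array and 5814 and 6665 on the 3'-Asp array. The first column of the 5'-Asp array alone stood apart, and the other 5 signals lay between 5814 and 6665. The log2 ratios were 0.06, -0.83 and -0.20, with an SD of 0.13 between second columns. Of 13 other hypoxia targets 10 were measured. On the 5'-Asp array none was 1.5-fold away from 0, against 4.35% of measured genes lower and 3.54% higher. Their values there ran from -0.33 to 0.35 with a median of -0.20. On the 5'-Lys array P4HA1, a collagen prolyl hydroxylase, had 0.63, against 4.49% of measured genes at least 1.5-fold higher, and the median was -0.15. NDRG2 and NDRG3, the measured paralogs of NDRG1, had -0.18 and 0.07 on the 5'-Asp array.

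HOMER2 encodes a scaffold protein known from the postsynaptic density. Signals were 1414 after 5'-Lys KD and 1943 in the control, 2294 and 1514 on the 5'-Asp array and 1864 and 1473 on the 3'-Asp array. As with TMPRSS2, the first column was the lower one on the 5'-Lys array and the higher one on both Asp arrays. The log2 ratios were -0.47, 0.58 and 0.34, with SDs of 0.11 between second columns and 0.47 between first columns. Of its paralogs, HOMER1 had -0.56, -0.32 and -0.26, and HOMER3 had -0.24, 0.24 and 0.11.

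TPD52 encodes a coiled-coil protein of vesicle traffic that is often gained in prostate cancer. Its brighter probe had first and second signals of 994 and 1004 on the 5'-Lys array, 762 and 764 on the 5'-Asp array and 474 and 678 on the 3'-Asp array. The first and second columns nearly coincided on the former arrays, with log2 ratios of -0.03 and -0.02, and differed on the 3'-Asp array, at -0.52. The other probe was dim, with signals between 20.0 and 39.5, and gave -0.44, -0.40 and -0.52. The averages were -0.24, -0.21 and -0.52, so on the first pair of arrays the value of TPD52 rested on the dim probe.

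**Figure D3:**
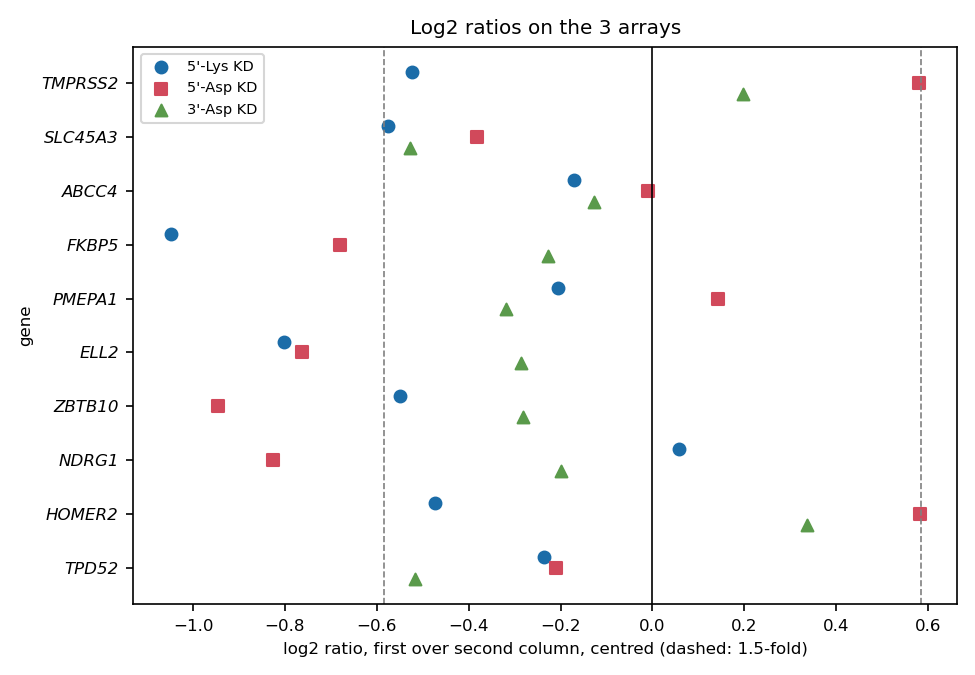
Centred log2 ratio of the first over the second column of the 10 genes with circles for 5'-Lys KD, squares for 5'-Asp KD and triangles for 3'-Asp KD, and with dashed lines at 1.5-fold. FKBP5 and ELL2 lie beyond the lower line on the 5'-Lys array, ZBTB10, NDRG1, ELL2 and FKBP5 on the 5'-Asp array, and no triangle does; TMPRSS2 and HOMER2 carry the highest squares.

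The 5'-Lys and 5'-Asp arrays used the same dose, and their log2 ratios can be set side by side. The difference, 5'-Lys minus 5'-Asp, was at least 1.5-fold for 3 of the 10 genes against 8.25% of measured genes. It was -1.10 for TMPRSS2 and -1.06 for HOMER2, both beyond 2-fold against 1.61% of measured genes, and 0.88 for NDRG1. ELL2 and TPD52 differed by -0.04 and -0.03, and FKBP5 by -0.37. These differences were not tested, as there was 1 array each. With the sign of the 5'-Asp array turned, other genes would differ: FKBP5 by -1.73, ELL2 by -1.56, ZBTB10 by -1.49, SLC45A3 by -0.96 and NDRG1 by -0.77, 5 of 10 against 31.8% of measured genes. TMPRSS2 and HOMER2 would then differ by 0.06 and 0.11.

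**Figure D4:**
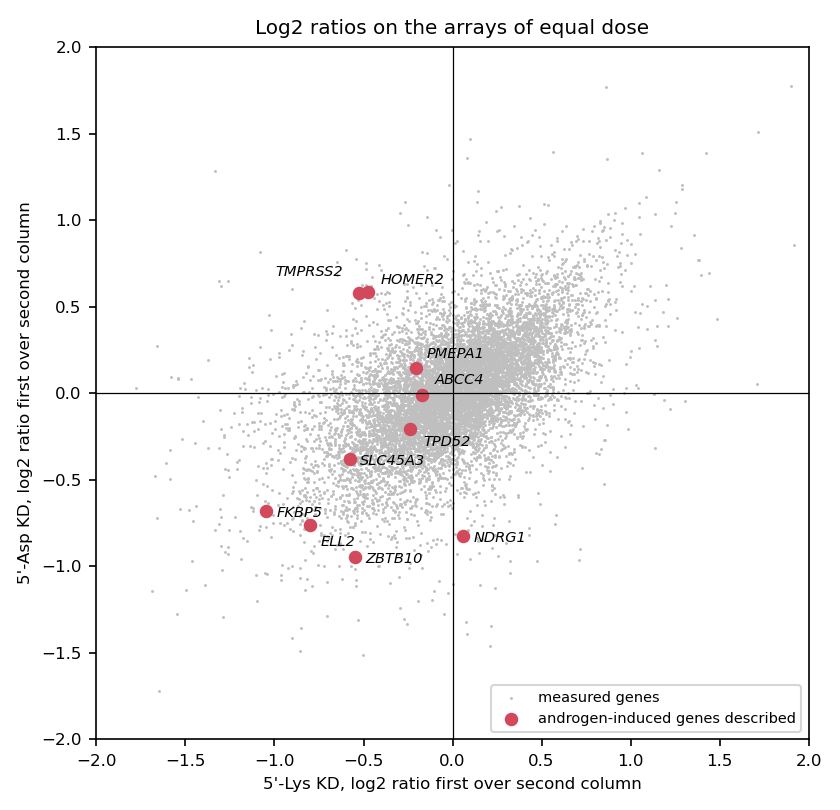
Centred log2 ratios of measured genes (grey points) on the 5'-Lys array (x axis) and the 5'-Asp array (y axis), first over second column, with the 10 genes named; 10 measured genes beyond a log2 of 2 on either axis are outside the plot. TMPRSS2 and HOMER2 sit together at the upper left, FKBP5, ELL2 and ZBTB10 at the lower left, and NDRG1 lies low on the y axis only.

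Among the 45 pairs of the 10 genes, TMPRSS2 and HOMER2 had the most alike ratios, with a Euclidean distance of 0.15 over the 3 arrays. PMEPA1 and ABCC4 followed at 0.25, FKBP5 and ELL2 at 0.27 and ELL2 and ZBTB10 at 0.31. The farthest pair was HOMER2 and ZBTB10 at 1.65. The genes with the largest mean size of log2 ratio were FKBP5 (0.65), ELL2 (0.62) and ZBTB10 (0.59). Nearest genes were sought among measured genes outside the 10, leaving out symbols of uncharacterised loci and of many noncoding transcripts. No distances of other genes are given beside these, so how unusual they are is not known. Nearest to FKBP5 were SPRYD7 (distance 0.06), the replication helicase subunit MCM6 (0.09) and TARP (0.11). Nearest to ELL2 were the kinetochore gene NDC80 (0.04), the cohesin acetyltransferase ESCO2 (0.06) and the prion protein gene PRNP (0.08). Nearest to ZBTB10 were ARL6IP1 (0.05), the autophagy receptor CALCOCO2 (0.10) and the phosphatidylserine synthase PTDSS1 (0.11).

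The columns were also compared by the spread of the presumed controls, since both readings of the labels name 3 control columns. With the second columns as controls, as the dye labels have it, the median SD over arrays was 0.13 for the 10 genes and 0.12 for measured genes, on the log2 scale relative to each column's median. With the columns named control, the median SD was 0.38 for the 10 genes and 0.18 for measured genes. Over the knockdown columns the 10 genes went the other way. Their median SD was 0.31 over the first columns and 0.19 over the columns named knockdown. For measured genes these were 0.16 and 0.18. The SD of the controls was larger by the column names for 9 of the 10 genes, TMPRSS2 being the exception (0.13 against 0.17), and for 69.8% of measured genes. The columns named control include the first columns of both Asp arrays. A gene whose first column is lower on every array therefore tends to a larger SD there. These SDs come from the same signals as the ratios above and do not settle which labels are right. The columns named control mix both dyes and the second columns do not, and how much of the larger spread the dyes give was not tested.

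The wider androgen response was taken from a list of 62 other androgen-induced genes without kallikreins, of which 48 were measured. After 5'-Lys KD 10 of 48 were at least 1.5-fold lower and 0 higher, against the same 6.95% and 4.49% of measured genes, with a median of -0.32. The lowest were KCNN2, a calcium-activated potassium channel (-1.08), ACSL3, a long-chain acyl-CoA synthetase (-0.95), and STEAP2, a metalloreductase (-0.89). On the 5'-Asp array 6 of 48 were lower in the first column and 0 higher, against 4.35% and 3.54% of measured genes, with a median of -0.16, led by the G protein subunit GNAI3 (-0.83), the lipase ABHD2 (-0.72) and the transcription factor MAF (-0.70). On the 3'-Asp array 4 of 48 were lower and 0 higher, against 2.56% and 2.3% of measured genes, with a median of -0.14, led by MAF (-0.79), KCNN2 (-0.77) and the kinase STK39 (-0.62). With the sign turned, the 6 and 4 genes of the Asp arrays would be higher, and the list medians 0.16 and 0.14. The medians of the 10 genes, -0.50, -0.30 and -0.26, lay farther from 0 than those of this list on each array and on the same side, whichever way the Asp arrays are read. Both lists were chosen with earlier results known.

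Genes that androgen lowers were few. Of 10 listed 4 were measured. UGT2B15, which glucuronidates androgens, had 0.02, 0.88 and 0.67, and its signals on the 5'-Asp array were 33144 and 17830 in the first and second columns. Its probe may also bind close relatives of the same enzyme family. CAMK2N1, an inhibitor of CaM kinase II, had -1.33, 1.28 and 0.43, and DDC, which makes dopamine and serotonin, had 0.41, 0.44 and 0.94. On the Asp arrays all 4 were above 0, the median of measured genes, with medians of 0.66 and 0.55. On the 5'-Lys array 2 were, with a median of -0.08. At least 1.5-fold higher were 2 of 4 on each Asp array, against 3.54% (5'-Asp) and 2.3% (3'-Asp) of measured genes. On the 5'-Lys array 1 of 4 was lower by that margin, against 6.95%, and 0 were higher, against 4.49%. Read first over second, CAMK2N1 crossed over between the 5'-Lys and 5'-Asp arrays, as TMPRSS2 and HOMER2 did. With the sign of the Asp arrays turned it would have -1.28 and -0.43 there and cross nowhere, and all 4 genes would be below 0 on these arrays, with medians of -0.66 and -0.55.

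FKBP5 is also induced by glucocorticoids. Of 9 further genes that glucocorticoids induce 8 were measured, and their medians were 0.02, 0.08 and -0.04. TSC22D3, a leucine zipper protein, was at -0.86 on the 5'-Asp array, where 4.35% of measured genes were at least 1.5-fold lower. The other 7 were within 1.5-fold on every array. Of 12 TGF-beta targets, set beside PMEPA1, 8 were measured. On the 5'-Lys array the inhibitor SMAD7 had 0.74 and the corepressor SKI -0.71, against 4.49% of measured genes higher and 6.95% lower. On the Asp arrays none was 1.5-fold away from 0. The shares there were 4.35% lower and 3.54% higher on the 5'-Asp array, and 2.56% and 2.3% on the 3'-Asp array. Of 19 paralogs of the 10 genes 14 were measured, and the medians were -0.02, 0.08 and 0.08. The drug efflux pump ABCC1 (0.61, 5'-Asp array) and ELL3 (-0.79, 3'-Asp array) were those at least 1.5-fold away from 0. In lists this short, 1 call or none per direction cannot be told apart from the shares of measured genes.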

How the data were processed

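Total RNA of LNCaP cells was hybridised on 3 2-colour arrays by a service company, per the labels. The deposited tables give, for each array, an intensity in 2 columns for 34183 probes. They are headed raw, but all values were above 0 and the medians of an array nearly equal (94.0 and 95.0, 70.7 and 70.9, 79.7 and 80.9 for 5'-Lys, 5'-Asp and 3'-Asp), so they were used as given. The sources used here name no extraction software. The deposited series values are a score per probe, the signed fold change of the first over the second column times 1 constant per array. Their medians were 1.06, 1.07 and 1.05.

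Gene symbols came from the platform annotation (2015) for 28048 probes. For 25515 of these the RefSeq symbol of the accession was used, whether or not it differed. Where a gene had several probes their log2 signals were averaged, the 10200 genes at or above the 50th percentile of mean signal were kept, and log2 ratios were centred on their median. A 1.5-fold threshold stood in for a test, and 1 array per group allows none. The number of arrays limits the precision. The steps were tested on simulated data. All 10 genes were named, with at most 3 genes per direction from each list. From lists with few calls all were named, and HOMER1, HOMER3, NDRG2, NDRG3 and ELL were added after their values were seen. Members, lists and alternatives were chosen with earlier results of these data known. Some listed genes were not analysed here. Alternatives used limma 3.58.1 in R 4.3.3. All else was computed in Python 3.11.15 with pandas 2.3.3 and numpy 2.4.6.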

Additional observations from a re-analysis of the deposited data

Results flagged for a closer look

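TMPRSS2, HOMER2 and NDRG1 had log2 ratios on opposite sides of 0 on the 5'-Lys and 5'-Asp arrays and differed by at least 1.5-fold between them. The difference, 5'-Lys minus 5'-Asp, was -1.10 for TMPRSS2, -1.06 for HOMER2 and 0.88 for NDRG1. For NDRG1 the 5'-Lys ratio was only 0.06 and changed sign under some settings, so the opposite side is not settled for it. With 1 array each the difference was not tested, and if the column names give the direction of the 5'-Asp array these differences become 0.06, 0.11 and -0.77.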

How the results depend on the processing

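No paired analysis was possible because each group has 1 array. In all, 11 other settings were tried, and those for the difference between arrays were chosen after seeing the data. With the sign of the Asp arrays turned as the column names have it, the medians of the 10 genes became 0.30 (5'-Asp) and 0.26 (3'-Asp). FKBP5, NDRG1, ELL2 and ZBTB10 then had 0.68, 0.83, 0.76 and 0.95 on the 5'-Asp array, which made 0 genes lower and 4 higher, and 5 genes rather than 3 differed between the 5'-Lys and 5'-Asp arrays. The count at least 1.5-fold lower after 5'-Lys KD was 2 as reported. It was 5 without the filter on dim genes or when centred on all named genes (TMPRSS2, SLC45A3 and ZBTB10 lay near the threshold). In both these cases the centre was 0.096 rather than 0.016, which lowered the ratio of every gene. It was 1 of the 5 genes kept by a filter at the 75th percentile, and 1 at a 2-fold threshold. Shares of measured genes are not given for most settings, so the changed counts lack that background. On the 5'-Asp array the 4 lower genes became 1 of 5 under that filter, where the median was 0.14, and 0 at 2-fold, and 2 genes were higher without centring (TMPRSS2 and HOMER2). On the 3'-Asp array the count lower, 0 as reported, was 3 with the mean second-column signal as control, 2 without the filter or centred on all named genes, and 1 with the brightest probe. With that mean as control the 5'-Lys median was -0.35. Apart from the turned sign, 5 of 255 values of single genes changed sign, all from within 0.15 of 0: NDRG1 on the 5'-Lys array, and PMEPA1 and ABCC4 on the 5'-Asp array. Signal over background limits ZBTB10 and the dim TPD52 probe most.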
